A study of Mus musculus with 4 samples.

Results

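Rad21 binding was examined at the 3 large olfactory receptor gene clusters of the mouse genome, on chromosomes 2, 7 and 9. Members were all peaks that lay fully inside chr2:85000000-90200000, chr7:111100000-115000000 or chr9:37700000-40200000 (mm9), joined into 1 region wherever peaks of the 4 deposited lists touched. This gave 81 regions, of 34743 over chromosomes 1 to 19 and X. The clusters contributed 12 regions on chromosome 2, 56 on chromosome 7 and 13 on chromosome 9, and no peak crossed an edge of a window. The windows were set by position and not by any measured value. The 5 Mb on each side of a cluster served as its flanks and held 502 regions.

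The data were 4 lists of broad peaks from chromatin immunoprecipitation of Rad21 followed by sequencing, 2 from wild type (WT) and 2 from 53BP1 knockout v-Abl transformed pro-B cell lines. Such lines are early B lineage cells kept dividing by a viral tyrosine kinase. All 4 libraries came from cells that carried Emu-Bcl2, were RAG1 deficient and had received 3 uM STI-571, an inhibitor of that kinase, for 4 days, so the WT cells differed from the knockout cells by 53BP1 alone as far as the labels say. The labels do not say how many clones or cultures stand behind 2 libraries, and a p-value over libraries therefore measures a spread that may be technical. The titles and the extraction protocol name Rad21, whereas the treatment label names an antibody against 53BP1 for each library. Peaks numbered 21971 and 23029 in the 2 WT lists, and 25145 and 22792 in those of the knockout. Their read depth is unknown, and the lists hold neither expression nor 53BP1 itself, so neither the cell type nor the knockout could be checked in them.

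Rad21 closes the cohesin ring as its kleisin subunit, and cohesin extrudes chromatin loops and halts mainly at sites bound by CTCF. 53BP1 is a chromatin reader of the response to DNA double-strand breaks. Olfactory receptors are G protein-coupled odorant receptors, and their genes form one of the largest families in mammals, arranged as tandem arrays. An olfactory neuron transcribes a single receptor gene, and in B cells the arrays are taken to be silent. Neither their transcription nor any chromatin mark over them was measured here. Class I receptors, the group shared with fish, form 1 array on chromosome 7 around the beta-globin genes, while class II receptors make up the arrays on chromosomes 2 and 9. The Olfr genes of the window on chromosome 7 were not sorted by class here. That window is therefore not taken as class I alone, and no comparison below is one between classes.

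Gene order was read from the RefSeq table of GRCm38.p6, by name alone, since its coordinates belong to another build than the peaks. Between Lrrc55 and Ptprj on chromosome 2 the table listed 293 Olfr genes, 71 of them pseudogenes, and only 3 other protein-coding genes, namely Fads2b, Pramel7 and Pramel6. Between Panx3 and Zfp202 on chromosome 9 it listed 127 Olfr genes, 32 of them pseudogenes, and 3 others, Vwa5a, AW551984 and Tmem225. The array on chromosome 7 was mixed. Between Hbb-y, an embryonic beta-globin gene, and Nlrp10 there were 145 Olfr genes, 25 of them pseudogenes, and 46 other protein-coding genes. These others included 11 neighbours from Trim6 to Trim30d, mostly members of the Trim family of ubiquitin ligases that contains the retroviral restriction factor Trim5, and an unbroken series of 21 genes from Fam160a2 to Gm1966. That series holds genes active in most cells, such as Ilk (integrin-linked kinase), Taf10 (a subunit of the general transcription factor TFIID) and Tpp1 (a lysosomal peptidase). It also holds others, such as Cnga4, Cckbr, Hpx and Gvin1, and the activity of none of them was measured in these cells. The share of Olfr among protein-coding genes was 98.7% on chromosome 2, 96.9% on chromosome 9 and 72.3% on chromosome 7. A further 93 Olfr genes stood between Rrm1 and Hbb-bt, on the other side of the beta-globin genes, so receptor genes are not limited to the interval counted. Where any of these genes lies in mm9 was not analysed here, and no region below is assigned to a gene.

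**Figure D1:**
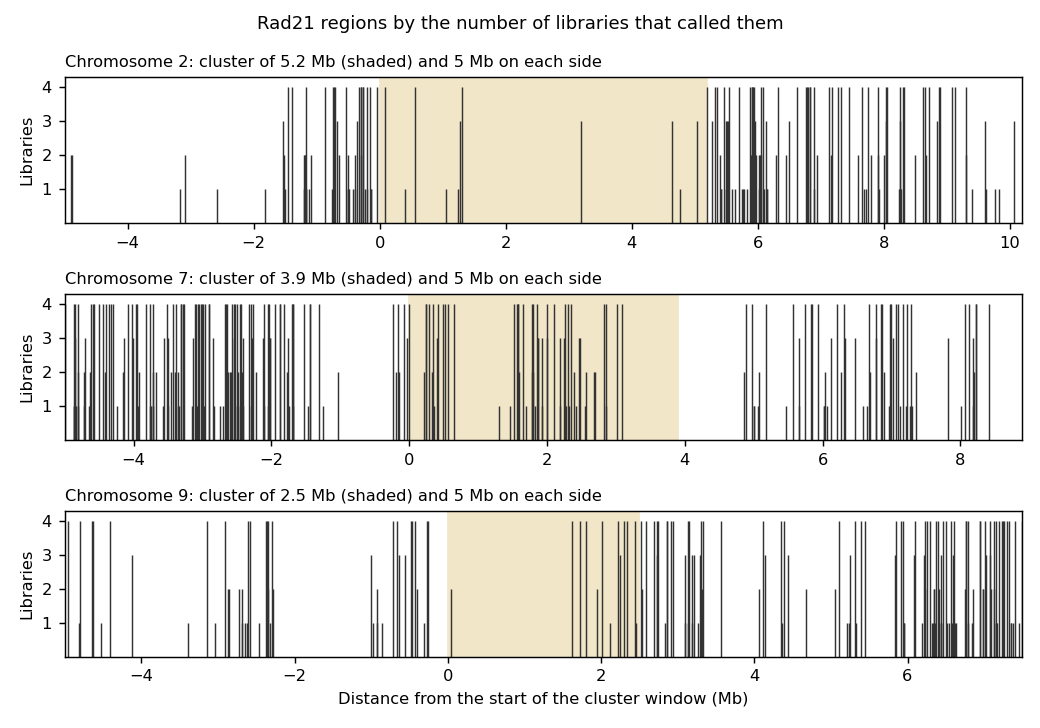
Every merged Rad21 region as a line whose height is the number of libraries (1 to 4) that called it, against the distance in Mb from the start of the cluster window (shaded), with 5 Mb on each side. The windows on chromosomes 2 and 9 hold 12 and 13 regions, and the 56 regions on chromosome 7 stand in 2 groups separated by an empty stretch.

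The first comparison asked how densely Rad21 peaks were listed in the arrays relative to the sequence beside them. The cluster on chromosome 2 had few listed peaks, and that on chromosome 9 had fewer per Mb than its flanks. The density on chromosome 7 lay between those of its 2 flanks. The lists hold no reads. How well reads could be placed in these tandem arrays was therefore not tested, and few listed peaks need not mean little cohesin. On chromosome 2 the WT libraries listed 9 and 9 peaks and the knockout libraries 8 and 6, in 5.2 Mb. Density was 1.54 ± 0.27 peaks per Mb in the cluster and 9.45 ± 0.61 in the flanks (mean ± SD, n = 4 libraries), a ratio of 0.162 ± 0.024. All 4 libraries had fewer peaks per Mb in the cluster than in either flank, which held 5.80 ± 0.43 on the left and 13.1 ± 1.5 on the right. The genes that follow this array in the RefSeq order run from Ptprj, a receptor phosphatase of blood cells, through a series that includes Spi1, which encodes the transcription factor PU.1 of myeloid and early B cells. Those before it include Ssrp1, Aplnr and Lrrc55. Expression of these genes was not measured, and its relation to peak density was not tested.

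On chromosome 9 the WT libraries listed 8 and 13 peaks and the knockout libraries 10 and 11, in 2.5 Mb. This was 4.20 ± 0.83 peaks per Mb, against 10.8 ± 1.6 in the flanks, a ratio of 0.397 ± 0.107 (SD, n = 4). In the RefSeq order the genes that follow this array start with Zfp202 and include Scn3b, the chaperone gene Hspa8, Bsx and Tecta. Where they lie relative to the right flank was not analysed. The left flank was itself thin, with 6.05 ± 0.97 peaks per Mb, and the right one had 15.6 ± 2.3. Against the left flank the ratio ran from 0.50 to 0.957 over the libraries, so the cluster lay below both flanks in each of the 4 lists but close to the left one in the second knockout list.

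On chromosome 7 the WT libraries listed 37 and 45 peaks and the knockout libraries 42 and 37, in 3.9 Mb. Density was 10.3 ± 1.0 peaks per Mb in the cluster, 19.9 ± 1.8 in the left flank and 8.05 ± 1.47 in the right flank (mean ± SD, n = 4). The cluster thus held 0.521 ± 0.037 of the density of the left flank and 1.30 ± 0.16 times that of the right flank, below the left and above the right in each of the 4 libraries. Across libraries the cluster values, 9.49 to 11.5, overlapped those of the right flank, 6.4 to 9.8, and not those of the left. Against both flanks together the ratio was 0.742 ± 0.053. The right edge of this window may lie inside a receptor array, so that its right flank may hold receptor genes too, and the 1.30 and 0.742 compare the window with neighbouring sequence, not with sequence known to be free of receptor genes. This direction depended on how much flank was taken. With 2 Mb on each side the ratio was 1.40, with the sequence 2 to 5 Mb away it was 0.565, and when peaks under a −log10 q of 5 were dropped it was 1.09. In these lists the window on chromosome 7 therefore did not have the low peak density of the other two windows.

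Over the 3 clusters the ratio was 0.446 ± 0.039. The ratio lay below 1 in 4 of 4 libraries for each cluster, with an exact two-sided sign-flip permutation p of 0.13 (2 of 16 sign patterns; Benjamini-Hochberg adjusted p = 0.13 over the 3 clusters), the smallest that 4 libraries can give. The libraries share the same windows, so this p speaks of the spread between lists and each cluster remains 1 place in the genome. The ratio on chromosome 2 was 0.0974 with flanks of 2 Mb and 0.296 with flanks from 2 to 5 Mb. Consecutive tiles of 5 Mb over the genome gave a background, with a median of 7.95 peaks per Mb. Of 505 such tiles, 27 (5.35%) had a density as low as the cluster on chromosome 2, 106 (21.0%) as low as that on chromosome 9 and 333 (65.9%) as low as that on chromosome 7. The windows on chromosomes 9 and 7, of 2.5 and 3.9 Mb, are shorter than these tiles, so the lengths compared are unlike. Of 2569 tiles of 1 Mb, 24.2% had a density as low as the cluster on chromosome 2. For chromosomes 9 and 7 the shares of 1 Mb tiles were 37.3% and 63.9%. Stretches with as few listed peaks were thus present elsewhere.

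**Figure D2:**
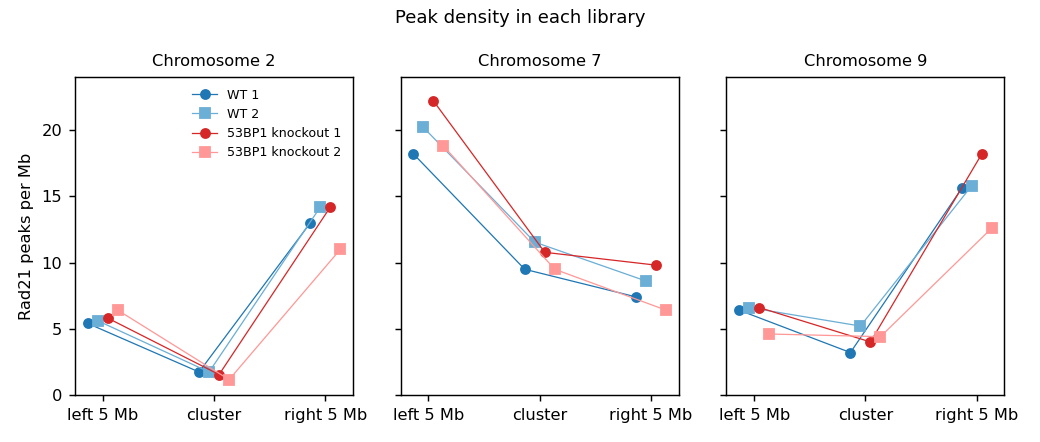
Rad21 peaks per Mb (y axis) in the left 5 Mb, the cluster and the right 5 Mb for each cluster, 1 point per library (circles replicate 1, squares replicate 2, blue WT, red 53BP1 knockout). In the chromosome 2 panel the cluster values are at most 1.73, below every flank value, and in the chromosome 7 panel each library's cluster value lies between its own 2 flank values, although cluster and right flank overlap across libraries.

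The length covered by peaks gave the same order. Peaks covered 0.974 ± 0.092 kb per Mb of the cluster on chromosome 2, 2.74 ± 0.43 on chromosome 9 and 5.85 ± 0.82 on chromosome 7, against 5.35 ± 0.26, 6.42 ± 0.76 and 8.12 ± 0.38 kb per Mb in the respective flanks (n = 4 libraries). The ratios were 0.182 ± 0.011, 0.437 ± 0.117 and 0.720 ± 0.092, below 1 in every library (exact sign-flip permutation p = 0.13 for each). Of the 100 kb tiles in the cluster on chromosome 2, 41 of 52 (78.8%) held the midpoint of no region, against 41 of 100 in its flanks. On chromosome 9 the tiles without a region were 15 of 25 (60.0%) against 36 of 100, and on chromosome 7 they were 18 of 39 (46.2%) against 29 of 100. Over the genome 48.7% of such tiles were empty.

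Spacing was measured next, as the distance between neighbouring peaks, which widens as density falls and is therefore no independent result. Neighbouring peaks of 1 list on chromosome 2 lay a median of 437 and 294 kb apart in the WT lists and 479 and 479 kb apart in the knockout lists, against 32.9 to 40.4 kb in the flanks. The ratio was 11.6 ± 1.9 (SD, n = 4). On chromosome 9 the medians were 103 and 93.9 kb in the WT lists and 89.3 and 95.9 kb in the knockout lists, 2.75 ± 0.30 times those of the flanks. On chromosome 7 they were 48.9 and 48.7 kb in the WT lists and 42.3 and 43.4 kb in the knockout lists, 1.32 ± 0.13 times those of the flanks. Spacing was wider inside than outside in all 4 libraries for each cluster (exact sign-flip permutation p = 0.13). On chromosome 7 the ratio was 0.693 with flanks of 2 Mb. On chromosome 2 it was 5.59 when peaks under a fold of 4 were dropped, 18.8 when 250 kb was taken off each end of the window, and 7.64 with flanks from 2 to 5 Mb.

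Between merged regions of the 4 lists, 0 of 11 spacings on chromosome 2 and 0 of 12 on chromosome 9 were under 10 kb, whereas 13 of 55 (23.6%) were on chromosome 7. In the flanks 25.7%, 19.4% and 25.4% of spacings were that short on chromosomes 2, 9 and 7. Neighbouring Rad21 regions under 10 kb apart, common beside the clusters, were thus not seen on chromosomes 2 and 9, where 11 and 12 spacings leave room for few. Regions as sparse as these seldom lie that close in any case, so this was not told apart from the low density.

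**Figure D3:**
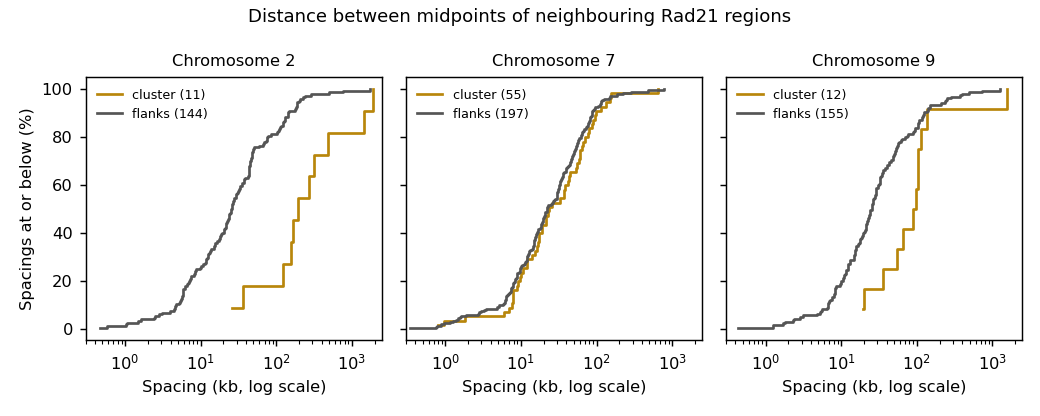
Cumulative percentage (y axis) of the distances between midpoints of neighbouring regions (x axis, kb on a log scale) in each cluster and in its flanks, with the number of distances in parentheses. The cluster curves on chromosomes 2 and 9 start at 26.3 and 19.6 kb, to the right of the flank curves, while the 2 curves on chromosome 7 have medians of 23.7 and 22.0 kb.

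On chromosomes 2 and 9 most of the window lay in a few long stretches without listed peaks. On chromosome 2 the longest ran from 86305748 to 88196159, 1890.4 kb without a region in any list, and the next from 88196876 to 89639498, 1443 kb. They were separated by a lone region at chr2:88196159-88196876, listed with folds of 3.35 and 4.60 in the WT lists and 3.96 in the first knockout library and not listed in the second. The third, of 483 kb, ran from 85566450 to 86049340. Together these 3 stretches made up 73.4% of the window.

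On chromosome 9 a single stretch from 37740727 to 39316581, of 1576 kb, took 63.0% of the window, and the next 2 were 137 and 113 kb long. On chromosome 7 the longest stretch began at 114189781 and filled the last 810.2 kb of the window. It continued into the right flank as far as 115958496, so that its full length was 1769 kb. The next on chromosome 7 was 653 kb long, from 111752261 to 112405318, and the third was the first 218 kb of the window. These 3 made up 43.1% of the window on chromosome 7, whereas the 3 longest on chromosome 9 made up 73.0% of its window.

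Among the 34723 gaps between neighbouring regions of the genome, with a median of 24.5 kb, these 4 stretches of over 1000 kb ranked 112 (chromosome 2), 121 (chromosome 7), 156 (chromosome 9) and 184 (chromosome 2). The genome had 325 gaps of at least 1000 kb, 0.936% of all gaps. Long stretches also occurred beside the clusters. The longest distance between midpoints of neighbouring regions within a flank was 1721 kb on chromosome 2, 792 kb on chromosome 7 and 1271 kb on chromosome 9. Within the windows these distances were 1891, 654 and 1577 kb in the same order. The 3 clusters touched 84 gaps, 5 of them (5.95%) at least 500 kb long, against 2.30% over the genome. A long gap touches a long window more easily than a short one, so the 2 shares are given as a description. No map of unassembled sequence, or of sequence where reads cannot be placed, was used, and the part of either in these gaps was not tested.

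The windows were then divided at empty stretches of at least 500 kb, a division made after the positions had been seen. Groups here are what lay between such stretches. By this division the window on chromosome 7 had 2 groups. The first spanned 0.434 Mb from 111317909 to 111752261 and held 13 regions, 9 of them called in all 4 libraries. Its peak density was 27.6 and 23.0 per Mb in the WT lists and 27.6 and 23.0 in the knockout lists. The second spanned 1.78 Mb from 112405318 to 114189781 and held 43 regions, 17 of them called in all 4 libraries, with 14.0 and 19.6 peaks per Mb in the WT lists and 16.8 and 15.1 in the knockout lists. These 2 groups, 56.9% of the window, held all 56 of its regions. The 500 kb bin with most regions was 112600000 to 113099999, with 18, and the last bin of the window, 114600000 to 115000000, had 0.

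On chromosome 9, 12 of the 13 regions stood in 0.842 Mb at the right end, from 39316581 to 40158610, with 9.50 and 14.3 peaks per Mb in the WT lists and 11.9 and 11.9 in the knockout lists. The right flank had 15.6 and 15.8 peaks per Mb in the WT lists and 18.2 and 12.6 in the knockout lists, above the group in each of the 4 libraries. The group was bounded by its own first and last regions, which raises its density. The remaining region, at chr9:37740166-37740727, lay 40.2 kb from the left edge and was called in the second WT and the second knockout library alone, with folds of 3.80 and 4.32. The bin with most regions was the last, from 39700000 to 40199999, with 8, while the bins from 38200000 to 39199999 had 0.

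On chromosome 2 there were 7 regions in 1.22 Mb at the left, from 85086358 to 86305748, and 4 in 0.553 Mb at the right, from 89639498 to 90192656, besides the lone one between. The outer 500 kb at both ends of this cluster held 5.00 regions per Mb and the interior 1.67. On chromosome 9 these values were 9 and 2.67, and on chromosome 7 they were reversed, 10.0 in the outer parts and 15.9 in the interior. The bin with most regions on chromosome 2, from 86000000 to 86499999, held 4, and 5 of its 11 bins held 0.

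The regions nearest to each edge were as follows. On chromosome 2 the last region before the start of the window, chr2:84963033-84964444, had folds from 4.05 to 5.12 and the first inside, chr2:85086358-85087312, from 3.59 to 4.64. At the other end the last inside, chr2:90191349-90192656, had folds from 3.85 to 4.47 and lay 7.34 kb from the edge, and the next one outside, chr2:90269613-90270871, was called in 3 libraries. On chromosome 7 the nearest regions were chr7:111090789-111091766 outside and chr7:111317909-111318637 inside the left edge, and chr7:114189275-114189781 inside and chr7:115958496-115958776 outside the right edge. On chromosome 9 they were chr9:37443884-37445001 outside the left edge, and chr9:40158287-40158610 inside and chr9:40222431-40224149 outside the right edge.

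The next comparison asked whether the few sites inside the arrays were reproducible or scattered calls. Sites in the clusters were shared between libraries about as often as sites elsewhere. All 4 libraries called 38 of the 81 regions (46.9%), where the share was 41.7% over the genome and 44.0% in the flanks. These were 4 of 12 on chromosome 2 (33.3%, own flanks 39.0%), 26 of 56 on chromosome 7 (46.4%, own flanks 46.7%) and 8 of 13 on chromosome 9 (61.5%, own flanks 45.2%). Regions of a single library made up 33.3% on chromosome 2 (own flanks 30.8%), 21.4% on chromosome 7 (26.1%) and 15.4% on chromosome 9 (28.0%). The 2 sparse clusters thus lay on opposite sides of their flanks, with 12 and 13 regions each. A single library called 18 of the 81 (22.2%), against 30.7% over the genome, 3 libraries called 14 (17.3%), against 13.6%, and 1 WT with 1 knockout library called 8 (9.88%), against 8.84%. The second WT library alone called 9 of the 18, the second knockout library 4, the first knockout library 3 and the first WT library 2. Over the genome the order differed, with 3786 regions called in the first knockout library alone and 2104 in the second WT library alone.

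Counted over peaks, 65.6% ± 5.9 of the cluster peaks of a list lay in a region of all 4 libraries, and 65.5% ± 7.2 of the flank peaks (SD, n = 4). The difference of 0.0906 percentage points was smaller than its SD of 4.97 (2 of 4 libraries higher, exact sign-flip permutation p = 1). The clusters apart gave −9.41 ± 7.61 points on chromosome 2, −2.59 ± 4.16 on chromosome 7 and 13.3 ± 20.2 on chromosome 9, with adjusted exact permutation p of 0.375 for each. On chromosome 2, 3 libraries had a lower share inside and the second knockout library had the same share, 66.7%, inside and outside. A cluster holds 6 to 45 peaks of a list, so differences of this size could not be told from the spread between libraries.

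**Figure D4:**
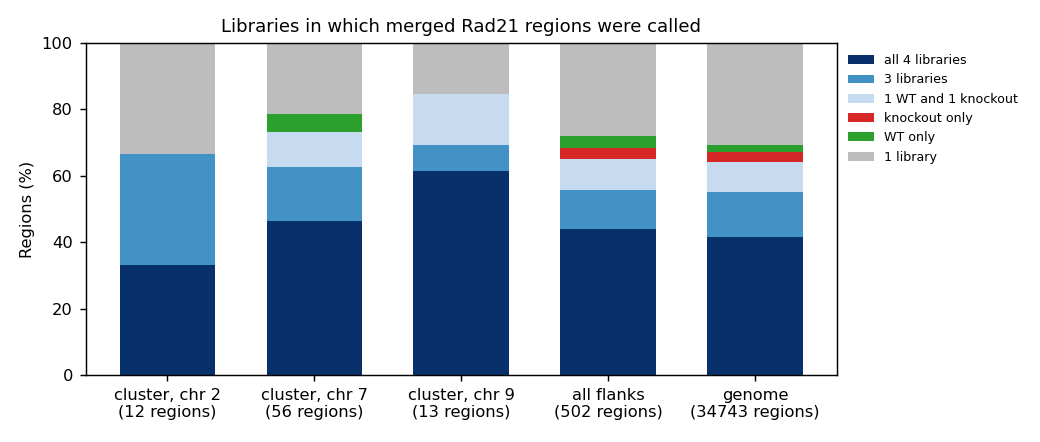
Percentage of merged regions (y axis) by the libraries that called them, for each cluster, all flanks and the genome, with the number of regions under each bar. Dark blue, called in all 4 libraries, makes up 33.3% on chromosome 2, 46.4% on chromosome 7 and 61.5% on chromosome 9, against 41.7% over the genome.

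Peaks in the clusters had a median fold somewhat above that of their lists in 3 of 4 libraries and slightly below it in the second knockout list. The clusters differed in how many strong peaks they held. Fold enrichment is the authors' own value and was compared inside each list, except where lists are ranked below. Median folds of the cluster peaks were 4.36 and 4.34 in the WT lists and 4.56 and 3.62 in the knockout lists, where the medians of the whole lists were 4.10, 4.06, 4.15 and 3.67. The median percentile of fold within a list was 59.4 ± 8.6 in the clusters and 50.2 ± 1.3 in the flanks, a difference of 9.20 ± 8.89 (higher in 3 of 4 libraries, exact sign-flip permutation p = 0.25). On chromosome 2 the difference was 16.6 ± 6.5, positive in all 4 libraries (exact permutation p = 0.13, adjusted p = 0.375), on chromosome 7 it was 11.8 ± 8.7 and on chromosome 9 −4.56 ± 15.92. A −log10 q of 5 or more was held by 14 of 54 and 18 of 67 cluster peaks in the WT lists (25.9% and 26.9%), and 20 of 60 and 13 of 54 in the knockout lists (33.3% and 24.1%). The whole lists had 27.0%, 27.7%, 25.9% and 16.5% in the same order. Most of these peaks were on chromosome 7, where the share lay above that of the whole list in all 4 libraries, at 32.4% and 31.1% for WT and 33.3% and 29.7% for knockout. On chromosome 2 it was 11.1% and 22.2% for WT and 25.0% and 16.7% for knockout, below the whole list in 3 of 4 libraries, with 1 or 2 such peaks in a list. On chromosome 9 it was 12.5% and 15.4% for WT and 40% and 9.09% for knockout, below the whole list in all but the first knockout library, with 1 to 4 such peaks in a list.

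Regions of all 4 libraries had a median merged width of 1062 bp in the clusters, 969 bp in the flanks and 919 bp over the genome. Regions of a single library were narrow everywhere, with medians of 310, 298 and 316 bp. At the 38 shared regions the median peak width was 648 and 669 bp in the WT lists and 557 and 727 bp in the knockout lists, so the 2 knockout lists lay on either side of both WT lists. The second knockout list had the lowest fold at 29 of the 38 (76.3%) and the first knockout list the highest at 21 (55.3%). Over the genome these shares were 63.3% and 46.6%, the same ranking of the knockout lists as in the clusters. The whole lists ranked likewise, with the lowest median fold, 3.67, in the second knockout list and the highest, 4.15, in the first. The ranking was therefore not read as a property of the clusters.

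The strongest sites are given by cluster, ranked by the lowest percentile of their fold among the 4 lists. On chromosome 2 one site stood out, chr2:86304355-86305748, 1394 bp wide and the widest shared region of that cluster. Its folds were 7.72 and 7.73 in the WT lists and 8.16 and 4.95 in the knockout lists, at percentiles 95.4 to 99.8. It formed the left border of the longest empty stretch of the cluster. The other regions of all 4 libraries there were chr2:85565411-85566450, with folds of 4.50 and 4.63 in the WT lists and 5.17 and 3.60 in the knockout lists, and the first and last regions of the window named above. Their lowest percentiles were 45.3, 44.4 and 39.1, so a single strong site stood among middling ones.

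On chromosome 7 the strongest site was chr7:113100906-113101964, with folds of 7.99 and 7.85 in the WT lists and 8.68 and 5.27 in the knockout lists, at percentiles 97.8 to 99.8. The site chr7:113931657-113932471 followed, with folds of 6.13 and 6.21 in the WT lists and 7.41 and 4.38 in the knockout lists. The site chr7:113357266-113358358 had folds of 7.30 and 6.97 in the WT lists and 9.27 and 4.33 in the knockout lists, the highest single fold of any member. The last named were chr7:112751159-112752792, with 5.08 and 4.76 in the WT lists and 6.22 and 5.34 in the knockout lists, and chr7:112874544-112875930, with 5.33 and 5.02 in the WT lists and 4.98 and 4.29 in the knockout lists. The former was also the widest shared region of this cluster, at 1634 bp. All 5 stood in the second group of regions, between 112405318 and 114189781.

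On chromosome 9 the strongest site was chr9:39508560-39509420, with folds of 4.75 and 5.32 in the WT lists and 7.68 and 4.26 in the knockout lists. It ranked highest in the first knockout list, at percentile 99.4, and lowest at 76.1. The next were chr9:39924421-39925679, chr9:39316581-39317713, chr9:39419580-39420011 and chr9:39712464-39713300, with lowest percentiles of 44.5, 34.3, 31.0 and 27.9. The widest shared region, chr9:39998849-40000608, was 1760 bp wide with folds of 3.49 and 3.44 in the WT lists and 4.58 and 3.04 in the knockout lists, and the second WT list divided it into 2 peaks. A −log10 q of at least 5 in every list was reached by 1 shared region on chromosome 2, 7 on chromosome 7 and 0 on chromosome 9, together 8 of 38 (21.1%), against 16.2% of the shared regions of the genome.

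**Figure D5:**
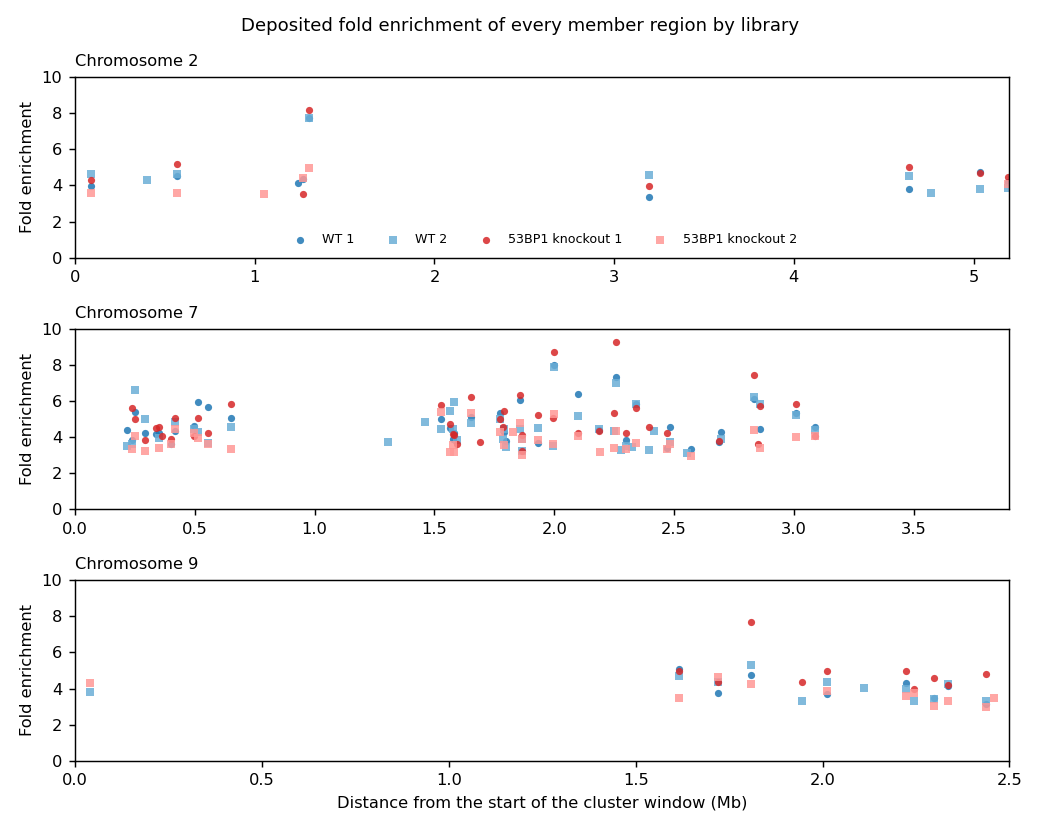
Deposited fold enrichment (y axis) of every member region in each library that called it, against the distance in Mb from the start of the window (circles replicate 1, squares replicate 2, blue WT, red 53BP1 knockout). Most values lie between 3 and 6, and the sites above 7 are 1 on chromosome 2, 3 on chromosome 7 and 1 on chromosome 9.

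The last comparison asked whether the loss of 53BP1 went with more or fewer cohesin sites in the arrays. Peak numbers in the clusters did not separate the genotypes beyond the spread between libraries. The 3 clusters together had 54 and 67 WT peaks and 60 and 54 knockout peaks, that is 60.5 ± 9.2 against 57.0 ± 4.2 (mean ± SD, n = 2 each). The difference, knockout minus WT, was −3.5 peaks with an exact two-sided permutation p of 1, and 2 libraries against 2 cannot give a p below 0.33. It was 6 for replicate 1 and −13 for replicate 2, which also differ in the prefix of their peak names, and 3 without the second WT library. The second WT library held the most peaks and set the direction.

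By cluster the difference was −2 peaks on chromosome 2, −1.5 on chromosome 7 and 0 on chromosome 9. On chromosome 2 both knockout counts, 8 and 6, lay below both WT counts, 9 and 9 (exact permutation p = 0.33, the lowest possible). Over the genome 2.77% of 5 Mb tiles had both knockout counts below both WT counts and 25.5% had both above. These counts also carry the length of the lists, of which the first knockout list was the longest. In this cluster 3 regions were missing from the second knockout list alone and 1 from the second WT list alone. As a share of each list, the clusters held 24.6 and 29.1 peaks per 10000 in the WT lists and 23.9 and 23.7 in the knockout lists, both knockout values below both WT values (exact permutation p = 0.33), a state found in 17.8% of tiles. The closest values, 24.6 and 23.9, were nearer to each other than the WT values were. The same state held for the cluster on chromosome 2, with 4.10 and 3.91 per 10000 in the WT lists and 3.18 and 2.63 in the knockout lists. It also held on chromosome 7, with 16.8 and 19.5 against 16.7 and 16.2, and not on chromosome 9.

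Sites that followed genotype were rare. Regions called in both WT libraries and neither knockout library numbered 3 of 81 (3.70%), where the background over all regions was 2.19%, and 0 of 81 were called in both knockout libraries and neither WT library, where it was 3.05%. With 81 regions these shares are near the background and rest on a handful of regions. All 3 lay on chromosome 7. The region chr7:111317909-111318637 had folds of 4.41 and 3.48, chr7:112900255-112900924 had 3.76 and 3.42, and chr7:113797002-113797226 had 4.28 and 3.87 in WT libraries 1 and 2. Their percentiles of fold ran from 14.7 to 64.1 within their lists, 2 of the 3 lay above the median fold of the first WT list, and the highest −log10 q among them was 3.08. Between pairs of libraries, 77.7% of cluster peaks overlapped between the WT libraries and 82.7% between the knockout libraries, averaged over both directions, while pairs of different genotype had 77.7% to 82.7%. Over the genome the order was another, with 80.2% between the WT libraries, 73.0% between the knockout libraries and 74.6% to 77.3% between genotypes.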

How the data were processed

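Rad21 chromatin immunoprecipitation was profiled in 4 libraries, grouped and numbered by their titles. Per the submitters' processing notes, MACS2 2.2.7.1, Bowtie2 2.4.4, deepTools 3.5.1 and SAMtools 1.15.1 were used with build mm9. Settings and any input control were not given in the sources used here. The deposited lists each have 9 columns without a header in the MACS2 broad peak layout, 1 list per library. The authors' columns used are the fold enrichment (a ratio of peak signal to background) and −log10 p and −log10 q. The deposited score, 10 times −log10 q, was not used. Lists began at a −log10 q of 1.01 to 1.02. The lists hold no read counts, so depth is unknown, and a shallower library can list fewer peaks for that reason alone.

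Positions count from 1, over chromosomes 1 to 19 and X. Densities count peaks fully inside a window, spacing is the distance between midpoints of neighbouring peaks, and percentiles rank folds within a list. Cluster and flanks were compared within libraries by an exact two-sided sign-flip permutation test over 4 libraries (16 sign patterns, smallest p 0.13), and genotypes by an exact permutation test over 6 arrangements. Genome tiles began at 3 Mb and were counted by peak midpoints. The density ratio and the share of regions in all 4 libraries were tested on simulated peak lists (Python 3.11.15, numpy 2.4.6, pandas 2.3.3). Simulated sites had equal width and did not touch each other. Spacing, covered length and fold percentile were not tested in this way.

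The windows, members and rules were chosen with earlier results of these data known. Regions named are, per cluster, the 5 strongest of all 4 libraries by lowest percentile, the widest shared one, those that followed genotype, the first and last, the 3 longest empty stretches and the fullest and emptiest 500 kb bins. Alternatives varied the peak threshold, list length, flanks, window edges, overlap rule and libraries. No mm9 genome or annotation was used here, so no sequence or gene is given for a region. Gene names come from the RefSeq table of GRCm38.p6 and were used for order only.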

Additional observations from a re-analysis of the deposited data

How the results depend on the processing

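The alternatives below were listed with the tests, none was added later, and the causes of these changes were not tested. No test could pass 0.05 in a design of 4 libraries, so a value was compared with the SD between libraries and a count with a factor of 1.5. Of 182 values recomputed with all libraries, 126 moved by less than that, 41 moved by more and 15 changed direction. The 126 include values that could not move. No peak crossed an edge of a window, so counting peaks that overlapped a window repeated the main values. The replicate block repeated the genotype differences by construction. The density ratio over the 3 clusters, 0.446, was 0.526 when peaks under a −log10 q of 5 were dropped and 0.550 when those under a fold of 4 were. The covered length ratio, 0.453, was 0.518 and 0.552 in these settings, and the median spacing ratio, 1.76, was 0.988 and 1.06. The density ratio of chromosome 2 was 0.133 and 0.238 in them, 0.118 with the window shortened by 250 kb at each end, 0.0974 with flanks of 2 Mb and 0.296 with flanks from 2 to 5 Mb. That of chromosome 7 was 1.09, 0.955, 0.798, 1.40 and 0.565 in the same order, and its covered length ratio was 1.09 at that q and 1.44, with a spacing ratio of 0.693, for flanks of 2 Mb. That of chromosome 9 was 0.266 at that q.

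The difference in shared peaks over the clusters, 0.0906 points, was 8.92 at that q, 5.22 at that fold, −2.29 with shortened windows and −0.0295 with flanks of 2 Mb. At that q and that fold it was 14.2 and 10.3 on chromosome 7 and −48.2 and −22.4 on chromosome 9, and it was 40.5 at that q on chromosome 2. The fold percentile difference on chromosome 9 was 8.18 with shortened windows. The genotype difference was 0.5 peaks at that q. Regions called only in knockout libraries numbered 1 at that q and 1 with all lists cut to equal length, and regions called only in WT 1 at that q and 1 at that fold. Spacing ratios for chromosomes 2 and 9 at that q were not obtained, since a list had too few peaks in each.

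Leaving out a library in turn gave density ratios of 0.432 to 0.460 over the clusters, 0.154 to 0.172 on chromosome 2, 0.722 to 0.765 on chromosome 7 and 0.359 to 0.433 on chromosome 9. The covered length ratio was 0.433 to 0.474, the spacing ratio 1.66 to 1.87 and the fold percentile difference 7.60 to 13.6. The difference in shared peaks was −3.05 to 6.19 over the clusters, −14.5 to 14.6 on chromosome 2, and −7.77 to 6.26 on chromosome 7, and the fold percentile difference on chromosome 9 was −12.0 to 0.303. The genotype difference was −10 to 3 peaks over the clusters, positive without the second WT library, and −5.5 to 2.5 on chromosome 7. With 3 libraries a region follows genotype more easily, and 3 to 6 regions were then called only in knockout and 4 to 12 only in WT libraries.

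In the replicate block, differences were taken within replicate numbers and averaged, which with 1 library per genotype and number equals the unpaired difference of −3.5 peaks. The numbers share only a number and a prefix of the peak names, so the block is no independent check and changed no other value.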
